A study of Mus musculus with 6 samples.

Results

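The PARP family of ADP-ribosyltransferases was followed through RNA-seq of CAD cells, a mouse catecholaminergic neuronal line, after targeting of the circular RNA circGigyf2. The 10 members, Parp1, Parp2, Parp3, Parp4, Parp6, Parp8, Parp9, Parp10, Parp12 and Parp14, were taken by gene symbol from a table of 24318 genes, and all 10 had a row. 3 libraries came from cells given siRNA against circGigyf2 (siCircGigyf2) and 3 from cells given a control siRNA (siNC). All 6 were made from total RNA depleted of ribosomal RNA, and the labels name no genotype, dose or time. The labels do not say whether replicates are separate cultures. P-values here measure only how much these libraries vary, which may be technical. The list was proposed with the difference between these groups already known. Its counts therefore describe the family and do not test it.

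PARP enzymes split NAD and attach ADP-ribose to proteins or nucleic acids. Parp1 and Parp2 build poly-ADP-ribose chains at DNA breaks, where the chains recruit repair factors. Most other members attach a single ADP-ribose unit, and several of these, Parp10, Parp12 and Parp14 among them, are known as genes induced by interferon. Parp9 is usually set apart, because its activity is tied to the ubiquitin ligase Dtx3l. In neurons, strong Parp1 activation is known to exhaust NAD and to cause a form of cell death.

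Values are FPKM, that is, fragments counted on a gene relative to its length and to the library's mapped fragments, so levels of different genes can be set side by side. FPKM summed to 624645, 604881 and 612649 in the siCircGigyf2 libraries and to 596803, 578627 and 601552 in the siNC libraries. These totals were thus higher in every siCircGigyf2 library. The number of fragments was not given, but single-fragment steps among low values placed the siCircGigyf2 libraries at 0.802 to 0.914 and the other siNC libraries at 0.953 and 0.98 of the depth of siNC replicate 1. Gigyf2, the host gene of the circle, averaged 21.4 ± 0.33 FPKM (SD, n = 3) in siCircGigyf2 and 23.2 ± 0.0749 in siNC, and circGigyf2 has no row of its own, so the knockdown itself was not measured here. This small fall (limma adjusted p = 0.0287) did not hold in 5 of the 6 fits that each left out 1 library, the exception being siCircGigyf2 replicate 1 (adjusted p up to 0.0845). Of 11 markers of a catecholaminergic neuronal line, 10 averaged at least 1 FPKM, with Th at 2.82 to 3.77 FPKM in siCircGigyf2 and 3.53 to 4.85 in siNC and Ddc under 0.5. These markers moved with the groups: Hand2, Slc18a1 and Tubb3 rose, and Dbh, Phox2a, Gata2 and Chga fell. The summed level of the 11 was 508 to 525 FPKM in siCircGigyf2 and 455 to 468 in siNC. That higher sum rested mainly on Tubb3, at 172, 187 and 173 FPKM in siCircGigyf2 and 123, 116 and 122 in siNC. It does not stand for the list as a whole. The part of these markers in the PARP differences was not tested. Of 10 microglial markers none reached a mean of 1 FPKM, 5 were listed at 0 throughout, and their summed level was 0.765 to 1.14 FPKM in siCircGigyf2 and 0.68 to 1.03 in siNC. Of 6 astrocyte markers 0 reached that mean. Single markers of other lists did: Cnp of oligodendrocytes (7.96 FPKM) and Pecam1 of endothelial cells (6.53). Of 6 fibroblast markers 2 did, Pdgfra (1.93) and Col1a1 (1.2), and Col1a1 rose. In such bulk libraries, less RNA of a gene per cell and fewer cells that express it cannot be told apart.

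The family spanned a wide range of levels in CAD cells, from Parp1 at 63.9 ± 0.781 FPKM (SD, n = 3) in siNC to Parp14 at 0.676 ± 0.145 FPKM. Parp6, a mono-ADP-ribosylating enzyme known from neurons, averaged 32.0 ± 0.641 FPKM in siNC and its relative Parp8 averaged 19.5 ± 0.954. The siNC ranges of these 3 leading genes did not overlap one another. A middle group followed, with Parp10 and Parp2 both at 5.1 FPKM and Parp3 at 4.62, and neighbours in that order overlapped in range. Parp9 (3.75 FPKM) and Parp4 (3.53) came next and also overlapped each other. Parp12 was lower, at 1.05 FPKM. Parp1 alone made up 45.9% ± 0.281 of the summed FPKM of the 10 members in siNC and 44.6% ± 0.941 in siCircGigyf2. In siCircGigyf2 the first 4 places were kept, Parp3 and Parp4 stood above Parp2, and Parp14 stood above Parp12.

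**Figure D1:**
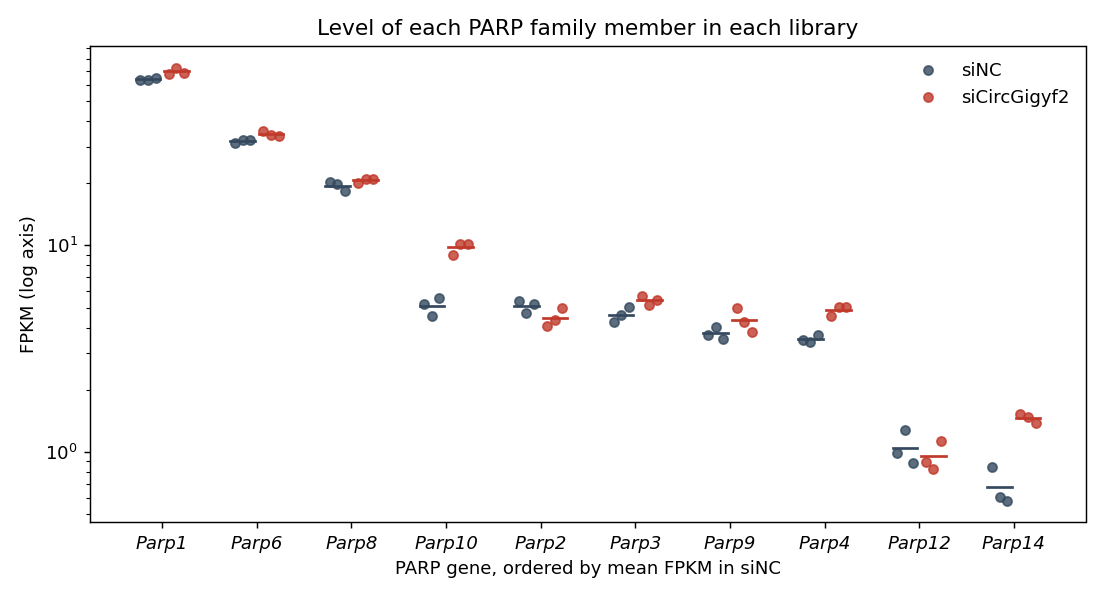
FPKM of the 10 PARP members (log axis) in each of the 3 siNC and 3 siCircGigyf2 libraries; points are libraries and short lines are group means. Parp10 sits between 4.53 and 5.59 in siNC and between 9.01 and 10.2 in siCircGigyf2, and Parp14 between 0.581 and 0.843 and between 1.38 and 1.52.

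Each difference is the siCircGigyf2 mean minus the siNC mean of log2(FPKM + 1), a scale that makes changes of low genes look smaller. They come from a limma fit of the 11420 genes with a mean of at least 1 FPKM, and a gene is said to have risen or fallen where its adjusted p over all of them was under 0.05. Of the 10 members 9 were tested, and 6 of them rose, 0 fell and 3 did not pass. These 9 leave out Parp12, which missed the filter. They include Parp14, which passed it only through its level in siCircGigyf2. The fit called 38.2% of all genes, 19.5% as higher and 18.7% as lower. Groups did not overlap for 6 of the 9 members, against 51.0% of all genes tested. The median difference of the tested members was 0.16, and that of all genes tested was 0.00035. Without siNC replicate 1, or without siNC replicate 2, only 3 members rose (Parp4, Parp10 and Parp14). In a fit with no filter on low values, 5 of the 10 members rose and 0 fell.

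Parp1, the main DNA-break sensor of the family, stood at 67.9, 72.6 and 68.6 FPKM in siCircGigyf2 and at 63.5, 63.4 and 64.8 FPKM in siNC. Every siCircGigyf2 library lay above every siNC library, but the ratio of the means was only 1.09. The log2 difference was 0.12 (SE 0.033, limma adjusted p = 0.0184), and the call was lost when siNC replicate 1 or 2 was left out (adjusted p = 0.0618 and 0.0544), after quantile normalization (0.0516) and without a variance trend (0.0504). Parp2, which shares the break-sensing role, stood at 4.05, 4.37 and 4.95 FPKM in siCircGigyf2 and at 5.37, 4.72 and 5.21 FPKM in siNC. Its groups overlapped through siCircGigyf2 replicate 3. The log2 difference of -0.16 (SE 0.076, limma adjusted p = 0.125) did not pass, and without siCircGigyf2 replicate 3 it was -0.23 (adjusted p = 0.0488).

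The members with the largest differences were mono-ADP-ribosylating enzymes of low or middle level. Of the 6 tested, 5 rose, 0 fell and 1 did not pass, where 19.5% of all genes tested were called higher. This count leaves out Parp12, which missed the filter of 1 FPKM. It includes Parp14, which passed that filter only through its level in siCircGigyf2. Parp10, an enzyme that modifies signalling and nuclear proteins, stood at 9.01, 10.1 and 10.2 FPKM in siCircGigyf2 and at 5.19, 4.53 and 5.59 FPKM in siNC. The groups lay far apart compared with their spread. Its log2 rise was 0.82 (SE 0.075, limma adjusted p = 8.83e-05), a ratio of means of 1.91. In the GENCODE annotation 4.8% of the exon bases of Parp10 also belong to Plec, the plectin gene, on the same strand. Plec averaged 44.2 FPKM in siCircGigyf2 and 36.5 FPKM in siNC and rose as well (ratio 1.21), and how fragments over the shared bases were counted is not given in the sources used here.

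Parp14, a large macrodomain enzyme that takes part in interferon and interleukin-4 signalling, stood at 1.52, 1.47 and 1.38 FPKM in siCircGigyf2 and at 0.843, 0.604 and 0.581 FPKM in siNC. The ratio of means, 2.16, was the highest of the 10 members, although the level was the lowest in siNC. The log2 rise was 0.56 (SE 0.095, limma adjusted p = 0.00196), or 1.02 with a pseudocount of 0.1. With a mean of 1.07 FPKM over all libraries, Parp14 was tested only because of its level in siCircGigyf2. Parp12, an interferon-induced enzyme of the secretory pathway and of stress granules, missed the same filter with a mean of 0.999 FPKM. It stood at 0.898, 0.825 and 1.13 FPKM in siCircGigyf2 and at 0.991, 1.27 and 0.879 FPKM in siNC, with overlapping groups. In a fit of all 17130 genes above 0, its log2 difference was -0.067 (SE 0.093, limma adjusted p = 0.679), and 5 of the 10 members rose and 0 fell.

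Parp4, the PARP of the vault particle, stood at 4.57, 5.01 and 5.02 FPKM in siCircGigyf2 and at 3.5, 3.41 and 3.7 FPKM in siNC. The groups did not overlap, and the log2 rise was 0.37 (SE 0.062, limma adjusted p = 0.00174; ratio 1.38). Vaults also hold the proteins Mvp and Tep1. Mvp, the major vault protein, averaged 24.9 ± 0.843 FPKM (SD, n = 3) against 17.6 ± 0.876 and rose by 0.48 (limma adjusted p = 1e-04). Tep1, a protein shared by vaults and telomerase, averaged 2.36 ± 0.14 against 2.2 ± 0.0387 FPKM, a log2 difference of 0.069 that did not pass (adjusted p = 0.468).

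Parp3, which acts at DNA double-strand breaks, stood at 5.7, 5.16 and 5.46 FPKM in siCircGigyf2 and at 4.24, 4.6 and 5.02 FPKM in siNC. The groups were separate by a narrow margin, and the rise of 0.20 (SE 0.068) lay close to the threshold (limma adjusted p = 0.0471). It was lost when any library but siNC replicate 3 was left out, at adjusted p up to 0.152. Parp6 stood at 35.8, 34.4 and 33.9 FPKM in siCircGigyf2 and at 31.3, 32.3 and 32.5 FPKM in siNC, a small rise of 0.11 (SE 0.035, limma adjusted p = 0.0311). That call was lost without siCircGigyf2 replicate 1 (adjusted p = 0.0889) or any siNC library (0.0561 to 0.111). Parp8 stood at 20.1, 20.9 and 21.0 FPKM in siCircGigyf2 and at 20.2, 19.8 and 18.4 FPKM in siNC, with overlapping groups and a log2 difference of 0.085 (SE 0.044, adjusted p = 0.156). The relatives Parp6 and Parp8 thus had the higher levels and the smaller differences among the 6 tested mono-ADP-ribosylating members.

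Parp9 stood at 4.96, 4.27 and 3.79 FPKM in siCircGigyf2 and at 3.67, 4.04 and 3.54 FPKM in siNC. Its groups overlapped, and the log2 difference of 0.16 (SE 0.088, limma adjusted p = 0.17) did not pass. Dtx3l, its ligase partner, stood at 6.94, 7.04 and 5.78 FPKM in siCircGigyf2 and at 5.4, 5.4 and 5.75 FPKM in siNC. That rise of 0.22 was just inside the threshold (adjusted p = 0.045) and was kept in only 1 of the 6 fits that each left out 1 library, that without siCircGigyf2 replicate 3 (adjusted p up to 0.134 in the others). The 2 genes lie head to head on opposite strands, and 9.4% of the exon bases of Parp9 are shared with Dtx3l in GENCODE. Strand handling is not given in the sources used here, so fragments from that overlap cannot be told apart.

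**Figure D2:**
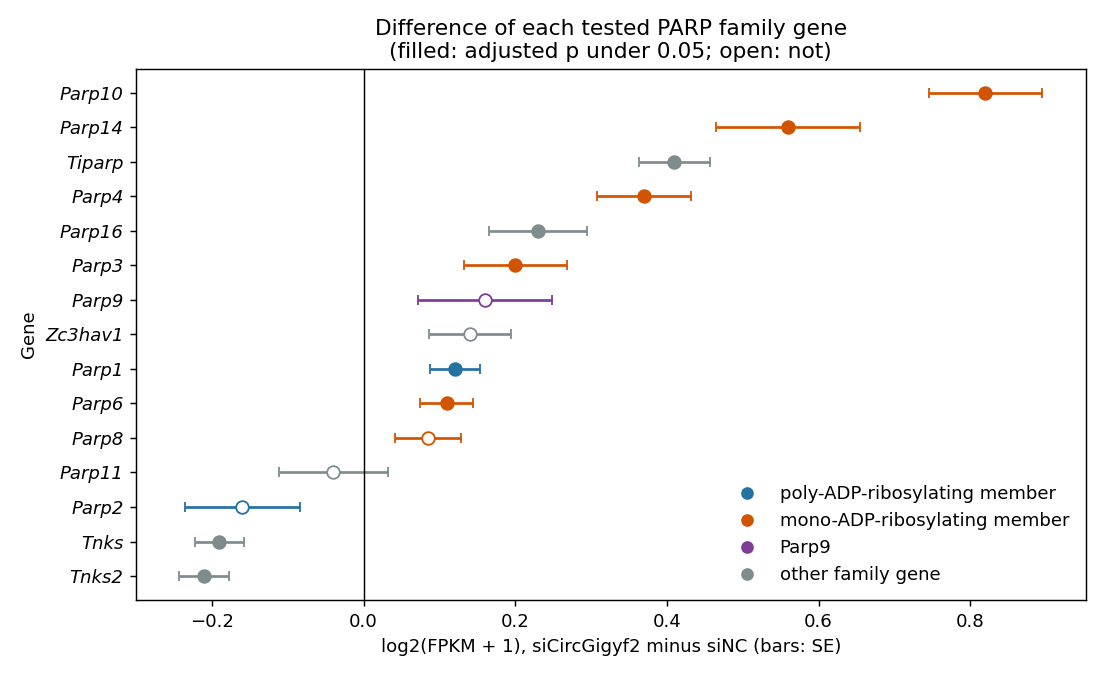
Difference in log2(FPKM + 1), siCircGigyf2 minus siNC, with its SE, for the 15 tested PARP family genes (9 members and 6 others); filled points passed an adjusted p of 0.05. Parp10 (0.82) and Parp14 (0.56) lie at the top and the tankyrases Tnks (-0.19) and Tnks2 (-0.21) at the bottom.

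Summed by class, the poly-ADP-ribosylating members Parp1 and Parp2 held 72.0, 77.0 and 73.5 FPKM in siCircGigyf2 and 68.9, 68.1 and 70.0 FPKM in siNC, a ratio of means of 1.07. The 7 mono-ADP-ribosylating members together held 77.7, 77.8 and 78.1 FPKM in siCircGigyf2 and 66.2, 66.5 and 66.6 FPKM in siNC, a ratio of 1.17. Neither sum overlapped between groups. The mono sum divided by the poly sum was 1.08, 1.01 and 1.06 in siCircGigyf2 and 0.961, 0.976 and 0.951 in siNC. Parp6 and Parp8 made up most of the mono sum. Without them, the other 5 genes went from 15.0 ± 0.703 FPKM (SD, n = 3) in siNC to 22.5 ± 0.728 in siCircGigyf2, a ratio of 1.5. The genes left out had the smallest differences of the tested mono members, which raises that ratio. Most of the gain was Parp10, from 5.1 FPKM in siNC to 9.74 in siCircGigyf2, while Parp12 was lower (1.05 and 0.952). The median difference was 0.28 over the 6 tested mono members and -0.02 over Parp1 and Parp2, with Parp1 higher and Parp2 lower in siCircGigyf2. Parp12 is not among those 6. In the fit with no filter on low values, which includes it, the mono minus poly median was 0.22, against 0.3 in the main fit. With only 2 poly members of opposite sign, and members picked on this contrast, no test was made of the class difference.

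The 6 family genes outside the member list moved in both directions, with 2 rising, 2 falling and 2 not passing. That is 33.3% each way, against 19.5% rising and 18.7% falling of all genes tested. Tnks and Tnks2 encode the tankyrases, poly-ADP-ribosylating enzymes of telomeres and of Wnt signalling, and both were abundant. Tnks stood at 61.8, 60.6 and 59.8 FPKM in siCircGigyf2 and at 71.1, 67.4 and 70.1 FPKM in siNC, a log2 fall of 0.19 (SE 0.032, limma adjusted p = 0.00157). Tnks2 stood at 51.7, 50.5 and 48.4 FPKM in siCircGigyf2 and at 58.5, 57.4 and 58.8 FPKM in siNC, a log2 fall of 0.21 (SE 0.033, adjusted p = 0.0013). All siCircGigyf2 libraries were below all siNC libraries for both genes, the reverse of the order seen for Parp1. Their summed level was 111 ± 2.67 FPKM (SD, n = 3) in siCircGigyf2 and 128 ± 2.6 in siNC. Thus the sum of all 16 family genes differed by less than that of the 10 members, with ratios of 1.04 and 1.12. The FPKM totals of whole libraries were also higher in siCircGigyf2, and the ratios of summed FPKM given here were not scaled to them.

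Tiparp, a mono-ADP-ribosylating enzyme induced by the aryl hydrocarbon receptor, stood at 38.8, 36.2 and 34.1 FPKM in siCircGigyf2 and at 26.7, 26.9 and 27.7 FPKM in siNC. It rose by 0.41 (SE 0.047, limma adjusted p = 0.000235), and in every fit with an adjusted p no higher than 0.00193. Parp16, a mono-ADP-ribosylating enzyme of the endoplasmic reticulum, averaged 4.15 ± 0.25 FPKM (SD, n = 3) against 3.39 ± 0.121 and rose by 0.23 (adjusted p = 0.0204). Its call was lost without siCircGigyf2 replicate 2, siNC replicate 1 or siNC replicate 3 (adjusted p = 0.0648, 0.0667 and 0.0554). Parp11, a mono-ADP-ribosylating enzyme of the nuclear envelope, averaged 3.44 ± 0.315 against 3.56 ± 0.15 FPKM, with overlapping groups. The antiviral protein gene Zc3hav1, a family member without catalytic activity, averaged 13.4 ± 0.834 against 12.1 ± 0.493 FPKM and did not pass (adjusted p = 0.0678); without siCircGigyf2 replicate 2 it did (0.0259).

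**Figure D3:**
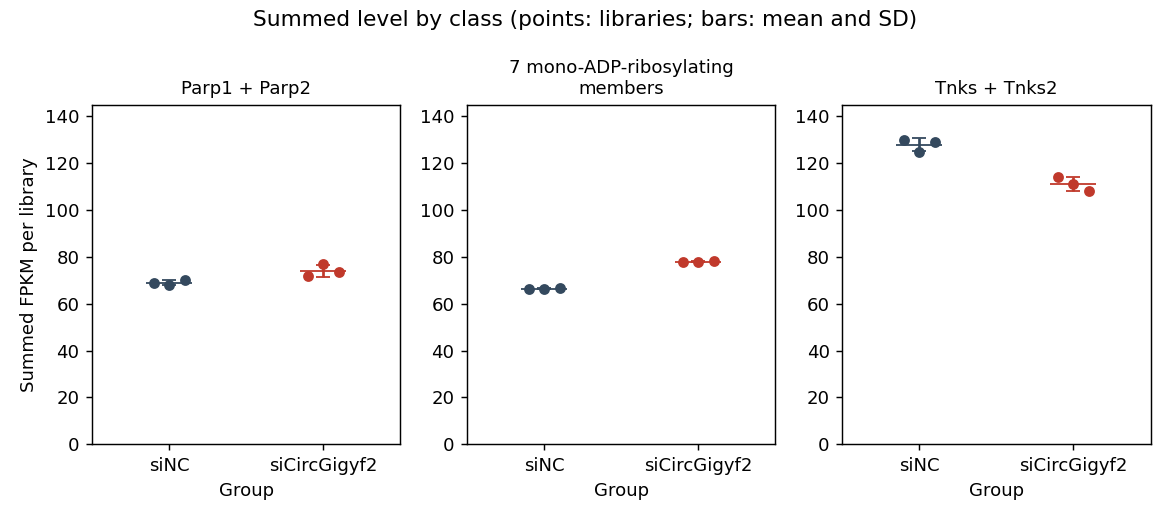
Summed FPKM per library of Parp1 and Parp2, of the 7 mono-ADP-ribosylating members, and of the tankyrases Tnks and Tnks2; points are libraries, bars the mean and SD of 3 libraries. The first pair of genes and the mono members are higher in siCircGigyf2 (ratios 1.07 and 1.17), and the tankyrases lower (111 against 128).

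Several members are known interferon targets, so their promoters were searched for the interferon-stimulated response element core, GAAA then NN then GAAA, and for the gamma-activated site, TTCNNNGAA, on both strands. The windows ran from 250 bases before to 50 after each start site in RefSeq (build GRCm38.p6). Of the 10 members 7 had one, and Parp9, Parp10 and Parp14 did not. Among the members named above as induced by interferon, only Parp12 was thus searched. Parp4 was the one member of these 7 with the response element core, which 3.99% of the 27025 genes with a promoter held. Parp11, outside the member list, held it before 1 of its 2 start sites. None of the 7 members held the gamma-activated site, against 9.55% of genes, whereas Parp11 and Parp16 did. Of 32 genes with a promoter in the interferon-stimulated list described below, 40.6% held the core and 31.2% the gamma-activated site. The 250 bases before the start are shown for both family genes with the response element core. Parp4 rose and Parp11 did not pass. Their promoters differ in the number, strand and position of core matches, and Parp11 also holds the gamma-activated site. Any link of these features to expression was not tested. The Parp4 stretch lies at chr14:56575369-56575618 and that of Parp11 at chr6:127446590-127446839, both on the plus strand. Capitals mark the bases matched by the response element core only.
Parp4: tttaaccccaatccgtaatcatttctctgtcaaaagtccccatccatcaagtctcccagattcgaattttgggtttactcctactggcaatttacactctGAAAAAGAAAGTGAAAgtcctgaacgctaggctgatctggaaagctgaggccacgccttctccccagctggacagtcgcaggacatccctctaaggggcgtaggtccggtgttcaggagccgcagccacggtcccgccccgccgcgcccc
Parp11: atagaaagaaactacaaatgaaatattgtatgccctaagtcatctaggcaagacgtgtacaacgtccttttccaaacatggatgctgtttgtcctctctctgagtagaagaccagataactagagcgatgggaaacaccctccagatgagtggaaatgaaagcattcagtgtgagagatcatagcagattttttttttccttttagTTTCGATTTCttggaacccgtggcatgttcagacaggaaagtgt

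In Parp4 a pair of overlapping matches runs from 150 to 135 bases before the start site. In Parp11 a single match on the other strand lies 44 to 35 bases before it, and the gamma-activated site overlaps its end. A match is a feature of the sequence and does not show that a factor binds there.

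The other interferon-stimulated genes of the list, which holds no PARP gene, were mostly at low level in CAD cells. Of 38 with a row, 18 were tested, with a median difference of 0.12. Of these 6 rose (33.3%, against 19.5% of all genes tested), 0 fell (against 18.7%) and 12 did not pass. Those that rose included Mx2, Eif2ak2, Lgals3bp, Oasl2 and Irf9, the last pair named after their values were seen. Oasl2, at 1.33 against 0.795 FPKM, was tested only because of its level in siCircGigyf2. It lost its call without siCircGigyf2 replicate 1 or siNC replicate 2 (limma adjusted p = 0.0562 and 0.0567), and Irf9 without siCircGigyf2 replicate 1 or siNC replicate 3 (0.0597 and 0.0594). Eif2ak2, the double-stranded RNA-activated kinase, averaged 12.2 ± 0.676 FPKM (SD, n = 3) against 9.8 ± 0.468, a log2 rise of 0.29 (limma adjusted p = 0.00324). Stat2, a transcription factor of interferon signalling, stood at 36.2 against 37.7 FPKM and did not pass (adjusted p = 0.212). Several classical induced genes were under 1 FPKM in both groups and were not tested. Isg15 stood at 0.452 against 0.151 FPKM without overlap of the groups, and Irf7 at 0.213 against 0.0942, Ifit1 at 0.0606 against 0.142 and Rsad2 at 0.00466 against 0.004 with overlap. Ifih1 was listed at 0 in all libraries. Some of these rises also appear in earlier results of these data and are no independent support.

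ADP-ribose is taken off again by hydrolases. Here the tested genes of removal moved in both directions, with 1 rising, 3 falling and 5 not passing. With each library left out in turn, 2 to 4 fell. The shares were 11.1% rising and 33.3% falling, against 19.5% and 18.7% of all genes tested. Parg, which breaks down poly-ADP-ribose chains, averaged 37.2 ± 0.937 FPKM (SD, n = 3) against 33.2 ± 1.05, a log2 rise of 0.16 (limma adjusted p = 0.00823). Oard1, which removes the last ADP-ribose from glutamate, averaged 8.41 ± 0.687 against 10.1 ± 0.657 FPKM and fell by 0.24 (adjusted p = 0.0199), a call lost without siCircGigyf2 replicate 3, siNC replicate 1 or siNC replicate 3 (0.0597, 0.062 and 0.0694). Nudt5, which splits free ADP-ribose, averaged 30.5 ± 1.38 against 36.7 ± 0.395 FPKM and fell by 0.26 (adjusted p = 0.000906). Enpp1, a nucleotide phosphodiesterase, fell by 0.16 (adjusted p = 0.0131).

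Of 11 tested cofactors and readers of ADP-ribose 5 rose (45.5%, against 19.5% of all genes tested), 0 fell (against 18.7%) and 6 did not pass. Leaving out each library in turn left only 1 to 3 that rose. The symbol 2700029M09Rik, which RefSeq gives as a synonym of Hpf1, the factor that directs Parp1 and Parp2 to serine, averaged 76.7 ± 5.77 FPKM (SD, n = 3) against 67.1 ± 3.23 and rose by 0.19 (limma adjusted p = 0.0272). Its groups overlapped, and the call was lost without either siCircGigyf2 replicate 1 or 3 or siNC replicate 1 or 2 (adjusted p up to 0.0922). H2afy, the macroH2A histone whose macrodomain can bind ADP-ribose, averaged 32.1 ± 1.09 against 29.1 ± 0.297 FPKM, a log2 rise of 0.14 (adjusted p = 0.0132). Dtx3 and Chfr, ubiquitin ligases, rose by 0.11 and 0.20 (adjusted p = 0.0337 and 0.0424). Dtx3 lost its call without siCircGigyf2 replicate 2 or 3 or siNC replicate 2 or 3, and Chfr without siCircGigyf2 replicate 1 or 3 or siNC replicate 1 or 2. Dtx3l, described above and outside the naming rule, was the fifth.

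Genes of single-strand break and base excision repair, the pathway served by Parp1, were tested for 18 symbols, of which 0 rose, 4 fell and 14 did not pass. The 22.2% that fell are close to the 18.7% of all genes called lower, and leaving out each library in turn gave 2 to 5 that fell and 0 to 1 that rose. Lig3, the ligase that works with the scaffold Xrcc1, averaged 14.7 ± 0.162 FPKM (SD, n = 3) against 17.0 ± 0.361 and fell by 0.20 (limma adjusted p = 0.00284). Smug1, a uracil glycosylase, averaged 12.1 ± 0.875 against 15.6 ± 0.687 FPKM and fell by 0.34 (adjusted p = 0.00181). Neil3, a glycosylase, and Fen1, the flap nuclease also used in replication, fell by 0.36 and 0.22 (adjusted p = 0.0175 and 0.0295). Neil3 lost its call without siCircGigyf2 replicate 3 or siNC replicate 2 or 3, and Fen1 without siCircGigyf2 replicate 1 or 2 or siNC replicate 1 or 3. Xrcc1 itself averaged 22.5 ± 1.18 against 23.2 ± 0.55 FPKM and did not pass (adjusted p = 0.503).

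NAD is the substrate of all active PARPs. Of 9 tested genes of the NAD supply list 1 rose, 5 fell and 3 did not pass (median difference -0.17). These are shares of 11.1% rising and 55.6% falling, against 19.5% and 18.7% of all genes tested. The list is broad: Nadk, Nadk2, Nnt and Slc25a51, all among those that fell, convert or carry NAD and do not make it. Among its genes of NAD synthesis, Nampt rose, Nadsyn1 fell, and Nmnat1, Nmnat2 and Nmrk1 did not pass (log2 differences -0.17, 0.0057 and -0.16). Nampt, the rate-limiting enzyme of NAD salvage, averaged 80.6 ± 1.38 FPKM (SD, n = 3) against 71.3 ± 1.24 and rose by 0.17 (limma adjusted p = 0.00171). Nnt, the mitochondrial transhydrogenase, averaged 12.1 ± 0.341 against 15.5 ± 0.296 FPKM and fell by 0.33 (adjusted p = 0.000338). Nadk2, the mitochondrial NAD kinase, averaged 23.8 ± 0.954 against 29.7 ± 0.841 FPKM and fell by 0.30 (adjusted p = 0.000523). Slc25a51, the mitochondrial NAD carrier, averaged 10.5 ± 0.865 against 13 ± 0.421 FPKM and fell by 0.29 (adjusted p = 0.00517). The other genes that fell were Nadsyn1 and Nadk, chosen after their values were seen. Nadk lost its call without siCircGigyf2 replicate 1 or 2 or siNC replicate 1 or 3. Among 8 tested sirtuins and other NAD consumers 2 rose (Sirt5 and Sirt6, by 0.26 and 0.23, adjusted p = 0.0408 and 0.0167) and 0 fell. With each library left out in turn, 0 to 2 rose. The 25.0% that rose are close to the 19.5% of all genes called higher. Sirt5 lost its call without siCircGigyf2 replicate 2 or 3 or without any siNC library, and Sirt6 without siCircGigyf2 replicate 2 or siNC replicate 2.

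Of 9 genes of stress granules and Argonaute proteins, RNA-binding partners that cytoplasmic PARPs are known to modify, 4 rose, 1 fell and 4 did not pass. The shares were 44.4% rising and 11.1% falling, against 19.5% and 18.7% of all genes tested. Ago2, Ago3 and Ago4 rose by 0.31, 0.45 and 0.41 (limma adjusted p = 8.1e-05, 0.000167 and 0.00415). G3bp1, a core stress granule protein, averaged 95.2 ± 1.65 FPKM (SD, n = 3) against 106 ± 0.999 and fell by 0.15 (adjusted p = 0.00276). Its paralog G3bp2, named after its value was seen, averaged 47.4 ± 0.136 against 42.9 ± 0.931 FPKM, a log2 rise of 0.14 (adjusted p = 0.00576).

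**Figure D4:**
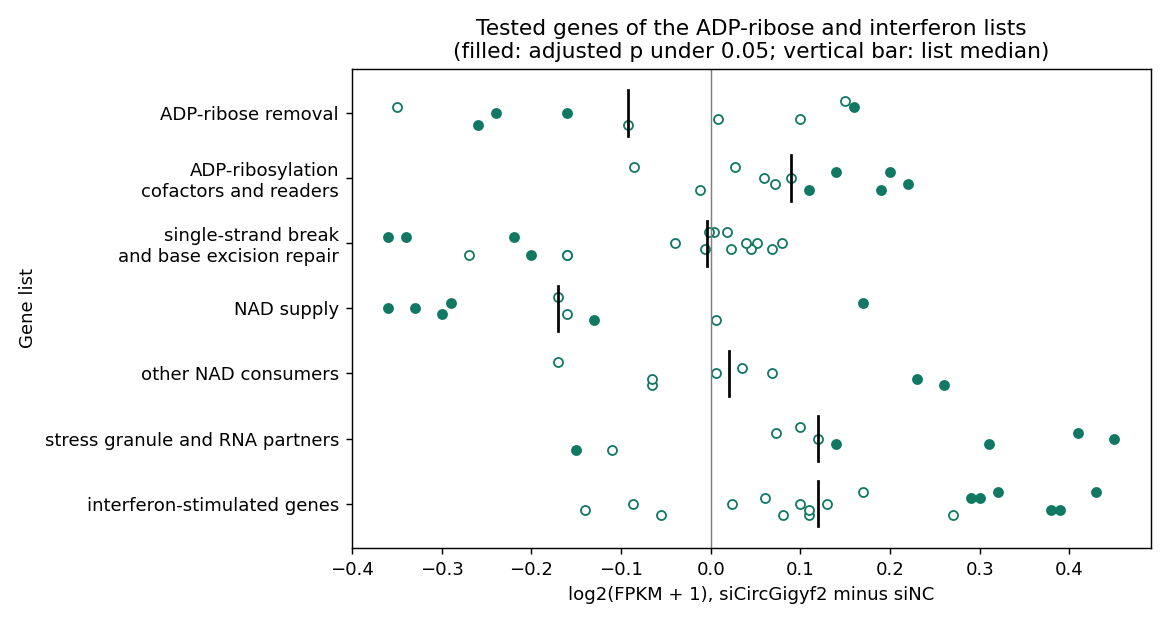
Difference in log2(FPKM + 1), siCircGigyf2 minus siNC, of each tested gene in 7 lists around ADP-ribose and interferon; filled points passed an adjusted p of 0.05 and vertical bars are list medians. The NAD supply list, which also holds genes that convert or carry NAD, lies lowest by median (-0.17). The interferon-stimulated genes have 6 filled points, all above 0.

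Parp10 had the smallest p of the members, and the genes with the pattern most like it over the 6 libraries were Unc13a, Wipi1 and Furin (Pearson r of log2(FPKM + 1) = 0.9992, 0.9992 and 0.9991). With 6 libraries in 2 groups such values mostly reflect the step between groups, and 764 of 11405 genes compared had an r over 0.95. Furin, a proprotein convertase, averaged 61.8 ± 1.33 FPKM (SD, n = 3) against 47.4 ± 1.83, a ratio of 1.3, below the 1.91 of Parp10. Unc13a, a synaptic vesicle priming gene, and Wipi1, an autophagy gene, had ratios of 1.14 and 1.2.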

How the data were processed

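RNA-seq of 6 CAD cell samples was used, grouped by title and treatment label, with each table column matched to its sample by title. The authors deposited FPKM per gene symbol. Per the submitters' processing notes the build was mm9; the aligner, quantifier, annotation and strand handling are not given in the sources used here. FPKM are relative to the rest of a library, and absolute depth is unknown.

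Genes with a mean of at least 1 FPKM over the 6 libraries entered a limma 3.58.1 fit (R 4.3.3) of log2 FPKM with 1 added (2 groups, no covariates, empirical Bayes with trend, two-sided). P-values were adjusted by Benjamini-Hochberg over 11420 genes. Tables were made in Python 3.11.15 with pandas 2.3.3. On simulated data for this comparison (11420 genes, 200 changed) the test recovered 41.8% of 1.2-fold, 89.6% of 1.5-fold and 97% of 2-fold changes. Of 162 calls 10 were false. The simulation changed a far smaller share of genes than the 38.2% called here, and its folds are of FPKM + 1. Its recovery and false share therefore need not hold for these data, least of all for low genes.

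Members and lists were chosen with earlier results of these data known. Named genes are all members, the 6 other family genes, up to 4 called genes of smallest p per list (all genes of lists with 5 or fewer tested), and the 3 genes most like the member of smallest p. Others are marked where named, except Gigyf2 as a label check, cell type markers and genes sharing exons with a member. Tested or near-0 list genes given for contrast are also unmarked (Stat2, Xrcc1, Nmnat1, Nmnat2, Nmrk1, Isg15, Irf7, Ifit1, Rsad2, Ifih1). Promoters came from RefSeq (GRCm38.p6) and exon overlaps from GENCODE M21 (GRCm38); both differ from mm9 and were joined by symbol. Protein sequences were not analysed here. A gene that the naming rule selects is not reported here; the counts of its list include it. Alternatives were another pseudocount, other filters and scalings, a replicate block, other variance settings and leaving out each library.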

Additional observations from a re-analysis of the deposited data

How the results depend on the processing

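Parp4, Parp10, Parp14, Tnks, Tnks2 and Tiparp kept their direction and their call in every alternative in which they were tested, whereas Parp1, Parp3 and Parp6 lost theirs in 4, 8 and 6 of 14. With a filter of 5 FPKM, which leaves fewer genes, 3 members, 1 other family gene and 3 interferon-stimulated genes rose. With no filter on low values, 9 genes of the pooled ADP-ribose lists rose (14 in the main fit), and the median of the mono members minus that of the poly members was 0.22 (0.30 in the main fit), because Parp12 enters. Leaving out each library gave 3 to 5 members that rose and 0 to 1 that fell, 1 to 2 other family genes that rose, 8 to 12 pooled list genes that rose and 9 to 13 that fell, 5 to 6 interferon-stimulated genes that rose, and a mono minus poly median of 0.26 to 0.33. The 1 member that fell was Parp2, without siCircGigyf2 replicate 3. Parp11 did not pass in any of these fits and ranged from -0.091 to 0.012, above 0 only without siCircGigyf2 replicate 2.

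Replicate numbers are shared between the groups. Correlations of deviations were 0.163, -0.0208 and 0.00253 for same-numbered libraries 1 to 3, and -0.119 to 0.131 for crossed pairs. The replicate 1 pair was thus the highest of all, but the other same-numbered pairs lay within the crossed range. No pairing held over all replicates, so the numbers were not taken as pairs. With the replicate number as a block, 4 members rose and 0 fell, with Parp3 and Parp6 lost (adjusted p = 0.0753 and 0.0668), and 2047 genes rose and 1926 fell over all genes tested. Dtx3 and Sirt5 also lost their calls there (0.0649 and 0.0653), as did Gigyf2 (0.0598). Absolute depth is unknown, so no counting interval could be given for low members such as Parp12 and Parp14.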
